A study of Mus musculus with 16 samples.

Results

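The epithelium of the uninjured distal colon was compared between 5 mice labelled Tnfr2 knockout and 4 control mice, which are the 9 water-treated mice among the 16 mice of the series. They were taken by their sample labels, as all mice of the water-treated table. The controls were Tnfr2-f/f, with loxP sites around part of *Tnfrsf1b* on both alleles, and the mice labelled knockout were Vil1::Cre;Tnfr2-f/f, so that all 9 mice carried the floxed alleles and only the second group carried the Cre recombinase. The villin promoter drives this Cre in intestinal epithelial cells, and immune and stromal cells keep the gene. The sample labels give 6 days of water and dissection at day 12 for these mice, whereas the study describes the uninjured adult mice as taken at the start of the experiment. EpCAM+ cells, that is, cells carrying an epithelial surface protein, were sorted by FACS from digested mucosa, and each mouse gave 1 polyA library. The 4 males (control 1 and 3, labelled knockout 1 and 2) shared cage a, and the 5 females (control 2 and 4, labelled knockout 3, 4 and 5) shared cage b, so cage and sex cannot be told apart. Values are in TPM, kallisto's relative measure of transcript abundance corrected for transcript length. Those of all listed transcripts of a gene were added up, and fold changes (log2FC) are on the scale of log2(TPM + 1), labelled knockout minus control, with their standard error (SE). This scale understates the change of genes with low TPM.

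TNFR2, the product of *Tnfrsf1b*, is the second receptor of tumor necrosis factor (TNF). It signals through TRAF adaptors to NF-kB. The secretory lineage of the colon holds goblet cells, which release mucus, deep crypt secretory cells, which lie beside the stem cells at the crypt base, hormone-releasing enteroendocrine cells and chemosensory tuft cells. Below the epithelium, plasma cells of the lamina propria release IgA, which the epithelium carries to the lumen. Complement proteins and the MHC molecules that present antigen are made by stromal and immune cells and, in part, by the epithelium itself.

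Exon 2 of *Tnfrsf1b* is the exon that the floxed allele loses by the study's methods, and its sequence is shown because deletion of the gene is what the labels state. It lies at chr4:145229004-145229106 of mm10 on the minus strand, holds 103 bases of the 3818-base listed transcript (2.7%) and is 1 of 10 exons. A second sequence is that of the stretch that sets the listed transcript of *Dus2* apart from the gene's other annotated transcripts, since *Dus2* was the only gene called between the groups. This stretch runs from exon 4 to exon 6 on the plus strand of chromosome 8, all of it coding, and capitals mark exon 5, at chr8:106031698-106031741 (44 bases). Both are from the GENCODE M21 transcripts.
Tnfrsf1b exon 2: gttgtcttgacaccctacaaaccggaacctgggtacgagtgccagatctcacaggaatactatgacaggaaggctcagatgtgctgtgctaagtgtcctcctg
Dus2 stretch: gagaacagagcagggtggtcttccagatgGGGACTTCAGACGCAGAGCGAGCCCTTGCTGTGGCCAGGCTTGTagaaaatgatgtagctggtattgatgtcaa

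The targeted gene was not lower in the labelled knockout beyond the spread between mice. *Tnfrsf1b* (ENSMUSG00000028599, chr4:145213463-145246870) stood at 13.5, 15.4, 11.1 and 15.5 TPM in control 1 to 4 and at 11.4, 10.1, 9.23, 14.8 and 13.3 TPM in labelled knockout 1 to 5. The groups overlapped, since labelled knockout 1, 4 and 5 lay above control 3. With limma the log2FC was −0.23 (SE 0.16, adjusted p = 0.865), and within cages it was −0.18 in cage a and −0.31 in cage b. An exact permutation of the mice, two-sided, gave p = 0.175 (n = 4 and 5). By flow cytometry the study found less TNFR2 on EpCAM+ cells of Vil1::Cre;Tnfr2-f/f mice than on those of controls. It reports a similar result from RT-qPCR of sorted EpCAM+ cells, described as loss of TNFR2 expression. The TPM given here, also from sorted EpCAM+ cells, showed no such loss, and the reason was not tested. The part of immune and stromal cells, which keep the gene, in the TPM given here was not tested. A TPM covers the whole transcript and does not show whether exon 2 was present. For this reason the groups are called control and labelled knockout.

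Epithelial markers differed between the groups by less than the spread between mice, and plasma cell transcripts varied widely among mice of each group. All 14 epithelial markers were tested, with a median log2FC of −0.02, and *Epcam* lay between 573 and 712 TPM in the controls and between 566 and 671 TPM in the labelled knockout. Immunoglobulin genes, of which 262 were listed and 210 were above 0, made up 24.8%, 8.25%, 1.62% and 30.9% of the listed TPM in control 1 to 4. In labelled knockout 1 to 5 they made up 18.1%, 47.4%, 20.2%, 35.4% and 21.1%. Control 2 and 3 lay below all mice labelled knockout, and control 1 and 4 lay among them. The mean was 16.4% ± 13.7 (SD, n = 4) for the controls and 28.4% ± 12.6 (n = 5) for the labelled knockout, a difference of 12.0 percentage points that was within the spread between mice (p = 0.222, exact permutation, two-sided). The difference was 19.5 percentage points in cage a and 5.99 in cage b, and it was 7.12 without control 3 and 7.30 without labelled knockout 2. *Jchain*, which joins the chains of secreted IgA, had 5900, 1906, 465 and 8161 TPM in control 1 to 4 and 3373, 13800, 5290, 11510 and 4923 TPM in labelled knockout 1 to 5, in the order of the immunoglobulin share within the controls. Of the 14 plasma and B cell markers 11 were tested, with a summed level of 494 to 8576 TPM in the controls and 3547 to 14400 TPM in the labelled knockout. Summed markers of macrophages and dendritic cells lay between 1272 and 1454 TPM and between 764 and 1806 TPM, and those of fibroblasts between 560 and 943 TPM and between 277 and 808 TPM, in the same order of groups. Markers of T and intraepithelial lymphocytes summed to 85.8 TPM at most, glial and neuronal markers to 2.96 TPM at most, and none of these lists held a gene called. In bulk libraries, fewer cells of a type and less RNA per cell cannot be told apart. The plot of immunoglobulin shares and list means shows these values by mouse and cage.

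**Figure D1:**
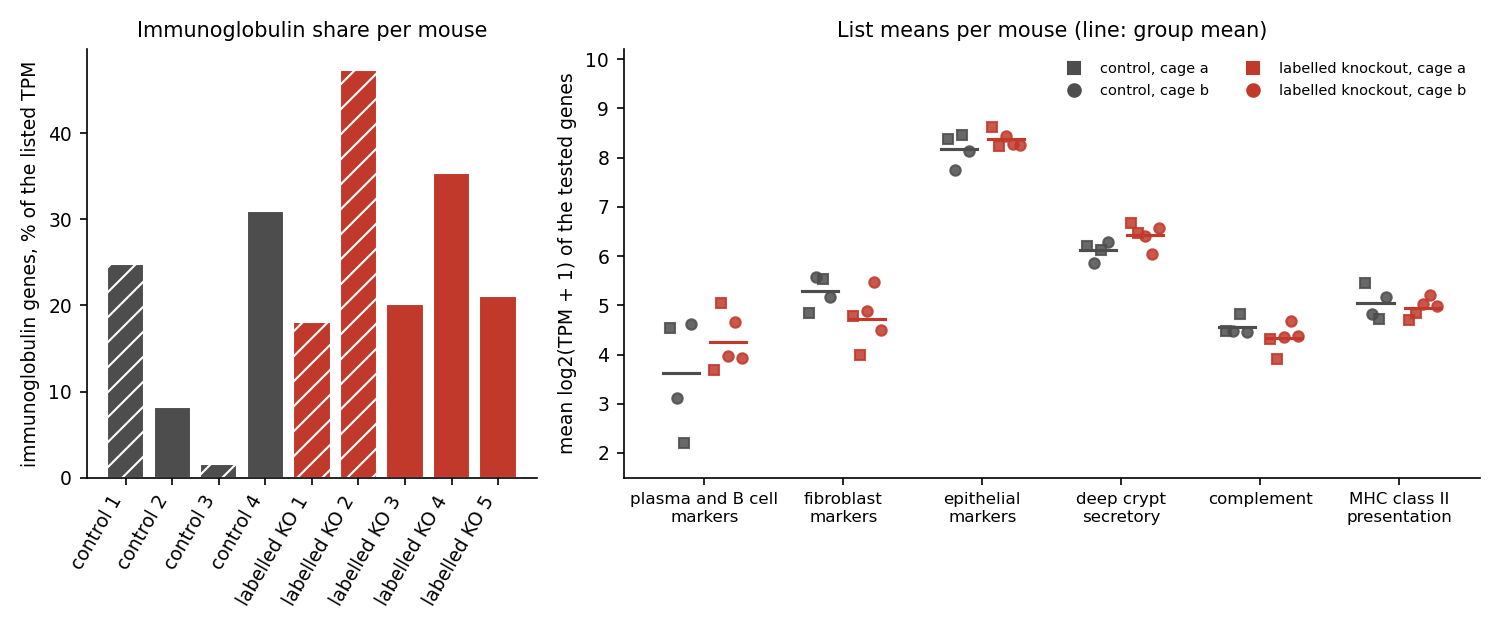
The left panel gives the percent of the listed TPM of each mouse in immunoglobulin genes (hatched bars for cage a, plain bars for cage b), and the right panel the mean log2(TPM + 1) of the tested genes of 6 lists, with a point for each mouse and a line at the group mean. The immunoglobulin share runs from 1.62% in control 3 to 47.4% in labelled knockout 2, and the groups overlap in every list drawn.

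A single gene was called between the groups. Of 11046 genes tested (1 TPM or more on average), 1 had an adjusted p under 0.05 (0.00905%), while 583 (5.28%) had an unadjusted p under 0.05, 298 higher (2.7%) and 285 lower (2.58%) in the labelled knockout. The gene was *Dus2* (ENSMUSG00000031901), which encodes a dihydrouridine synthase that modifies tRNA. It had 3.77, 4.35, 4.23 and 3.81 TPM in control 1 to 4 while no mouse labelled knockout was above 2.00e-06 TPM. The log2FC was −2.33 (SE 0.16, adjusted p = 0.00132), with −2.32 in cage a and −2.34 in cage b, and with a pseudocount of 0.1 the adjusted p was 0.091. Exon 5, in capitals above, was the only part of the listed transcript that no other transcript of *Dus2* holds: 73 of its 1830 windows of 31 bases (3.99%) were absent from the other 5 annotated transcripts, none of which is listed, so that reads assigned to those do not enter its TPM. The DSS-treated mice, given dextran sulfate sodium (DSS) to injure the colon, are a group of its own with 3 controls and 4 mice labelled knockout. In these mice the fold change of *Dus2* was −0.22.

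Per transcript, 2 of 12661 tested were called (0.0158%) and 630 had an unadjusted p under 0.05. The first was the listed transcript of *Dus2* (adjusted p = 0.00671), and the second was 1 of 2 listed transcripts of *Polr3c*, a subunit of RNA polymerase III. That transcript, ENSMUST00000154679.7, had 4.81, 16.8, 13.2 and 5.13 TPM in control 1 to 4, and no mouse labelled knockout was above 4.47e-08 TPM (log2FC −3.29, SE 0.36, adjusted p = 0.0469). The other, ENSMUST00000029741.8, had 14.3, 9.24e-05, 5.38 and 12.6 TPM in the controls against 22.04, 18.8, 23.01, 17.2 and 19.9 TPM in the labelled knockout, so that it was higher in every mouse labelled knockout. Summed over both, *Polr3c* had a log2FC of 0.15 (adjusted p = 0.865). The stretches that set these transcripts apart are mostly untranslated: that of the first runs over exons 1 and 2 and holds 8 coding bases among 293, and those of the other, in its first and last exon, hold 0. Left out in turn, every mouse except control 1 and 4 raised the adjusted p of the *Polr3c* transcript above 0.05 (0.0523 to 0.219), and cage as a covariate raised it to 0.157. For the *Dus2* transcript, it was 0.0531 without control 3. Among transcripts whose groups did not overlap, the largest changes were higher for the immunoglobulin segments *Igkv4-71* and *Igkv4-80* and lower for that of *Polr3c* and for ENSMUST00000167992.7 of *Tusc3*, an oligosaccharyltransferase subunit. The last had 15.4 to 17.2 TPM in the controls, 14.4 and 13.2 TPM in labelled knockout 4 and 5, and at most 0.0281 TPM in the other 3, but over both listed transcripts *Tusc3* had a log2FC of −0.13.

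The genotypes did not overlap in 171 of the 11046 genes (1.55%), which means that every mouse of one group lay above every mouse of the other. Of these, 74 (0.67%) were higher and 97 (0.878%) were lower in the labelled knockout, and except for *Dus2* none was called (smallest adjusted p = 0.637). For a gene without overlap an exact two-sided permutation of the mice gives p = 0.0159. A share near 1.55% would thus be found with no difference between the genotypes. The changes were mostly small: the median log2FC was 0.42 over the 70 higher genes that are not immunoglobulin genes and −0.40 over the 97 lower genes, and 53 of the 171 had a mean under 5 TPM. Leaving out any 1 mouse raised the count, to between 281 (without labelled knockout 2) and 528 (without control 1), since fewer mice had to be ordered.

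Among the higher genes were 4 of the 190 immunoglobulin genes tested, where 0.67% of all genes were higher without overlap. They were the variable segments *Igkv4-71*, *Igkv4-80*, *Ighv2-6-8* and *Ighv2-2*, near-identical copies of which make their values uncertain. *Ighv2-2* had 97.3, 253, 25.5 and 242 TPM in control 1 to 4, and 715, 1873, 10460, 348 and 581 TPM in labelled knockout 1 to 5. The highest value, in labelled knockout 3, was more than the sum of the other 8 mice. *Ighv2-6-8* was listed at 0 in the controls and at 29.8, 46.8, 125, 11.6 and 2.59 TPM in the labelled knockout. The immunoglobulin share of labelled knockout 3 was 20.2%, in the lower part of its group. *Igkv4-71* had 29.1, 12.1, 0 and 0 TPM in control 1 to 4 and 43.6, 777, 157, 740 and 71.7 TPM in labelled knockout 1 to 5. It was highest in labelled knockout 2 and 4, the mice with the highest shares.

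Apart from the immunoglobulin segments, the 10 higher genes with the largest change ranged from *Brpf1*, a subunit of histone acetyltransferase complexes, at 1.72 on the log2 scale to *Slc39a11*, a zinc transporter, at 0.82. *Brpf1* had 0.546, 0.623, 0.0698 and 0 TPM in the controls against 4.96, 4.45, 5.03, 1.71 and 1.55 TPM in the labelled knockout (SE 0.34, adjusted p = 0.865). The levels were thus low in all mice, and the 2 lowest mice labelled knockout were both of cage b. *Tesc*, a calcium-binding protein, had 0.956 TPM in control 1, was at 0 in the other controls and lay between 1.77 and 3.33 TPM in the labelled knockout (log2FC 1.66, SE 0.26, adjusted p = 0.637). *Wbp1*, which binds WW domains, lay between 14.97 and 27.8 TPM in the labelled knockout and had 14.9, 7.92, 0 and 8.62 TPM in the controls, a change of 1.70 in which control 3 was the lowest mouse. *Gpr15*, a receptor that guides T cells to the colon, had 1.19, 0, 0.715 and 1.24 TPM in the controls against 1.60, 7.16, 1.93, 3.38 and 1.63 TPM in the labelled knockout, highest in the mouse with the highest immunoglobulin share. *Slc39a11* was better expressed, at 19.7, 11.1, 23.2 and 13.6 TPM in the controls against 25.9, 31.9, 32.1, 28.7 and 28.6 TPM in the labelled knockout (SE 0.20, adjusted p = 0.865), and the female controls were lower than the male controls. The others were the cell cycle inhibitor *Cdkn2d* (1.55), the potassium channel subunit *Kcnab2* (1.33), the ciliary gene *Bbs5* (1.23), the DNA repair gene *Xrcc3* (1.22) and *Mfsd13a* (0.82).

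The 10 lower genes ran from *Dus2* to *Ubac1*, which had a log2FC of −1.21. *Eif4g3*, a translation initiation factor, had 8.15, 7.45, 7.51 and 11.5 TPM in the controls against 5.46, 0.104, 3.10e-05, 0.00739 and 6.25 TPM in the labelled knockout (log2FC −2.11, SE 0.68, adjusted p = 0.865). Labelled knockout 1 and 5 thus lay near the controls and the other 3 near 0. *Carm1*, an arginine methyltransferase, had 5.88, 7.52, 8.22 and 6.66 TPM in the controls against 2.95e-07, 2.14, 0.00406, 3.74 and 2.06 TPM in the labelled knockout, a change of −1.90. For *Mier1*, a transcriptional regulator, the change was −1.996 (SE 0.33, adjusted p = 0.637). *Mef2d*, a transcription factor, had 2.06 to 3.43 TPM in the controls, was listed at 0 in 4 mice labelled knockout and had 1.89 TPM in labelled knockout 5. *Ubac1* had 12.0 to 13.2 TPM in the controls against 9.70, 7.71, 11.6, 2.41e-07 and 5.38 TPM in the labelled knockout, where the value near 0 is that of a single mouse. The remaining genes of this group were the cofactor synthesis enzyme *Mocs1*, *E130218I03Rik*, the exchange factor *Rapgef2* and the kinase *Uhmk1*, with log2FCs between −1.30 and −1.80.

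The largest changes belonged to genes listed near 0 in some mouse. All 21 non-overlapping genes other than immunoglobulin genes with a log2FC beyond 1 in either direction had at least 1 mouse under 0.01 TPM, compared with 3 of the 146 others and with 14.1% of the 10856 tested. They had a median of 8 annotated transcripts against 5 in all genes tested, and in 19 of the 21 under 15% of the listed transcripts' 31-base windows were absent from the gene's other transcripts (median 3.78%, against 40.7% in the 146). *Gpr15*, with a single annotated transcript, was an exception. The TPM of isoforms that are not listed could not be added to these sums, and the part of isoform assignment in the differences was not tested.

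**Figure D2:**
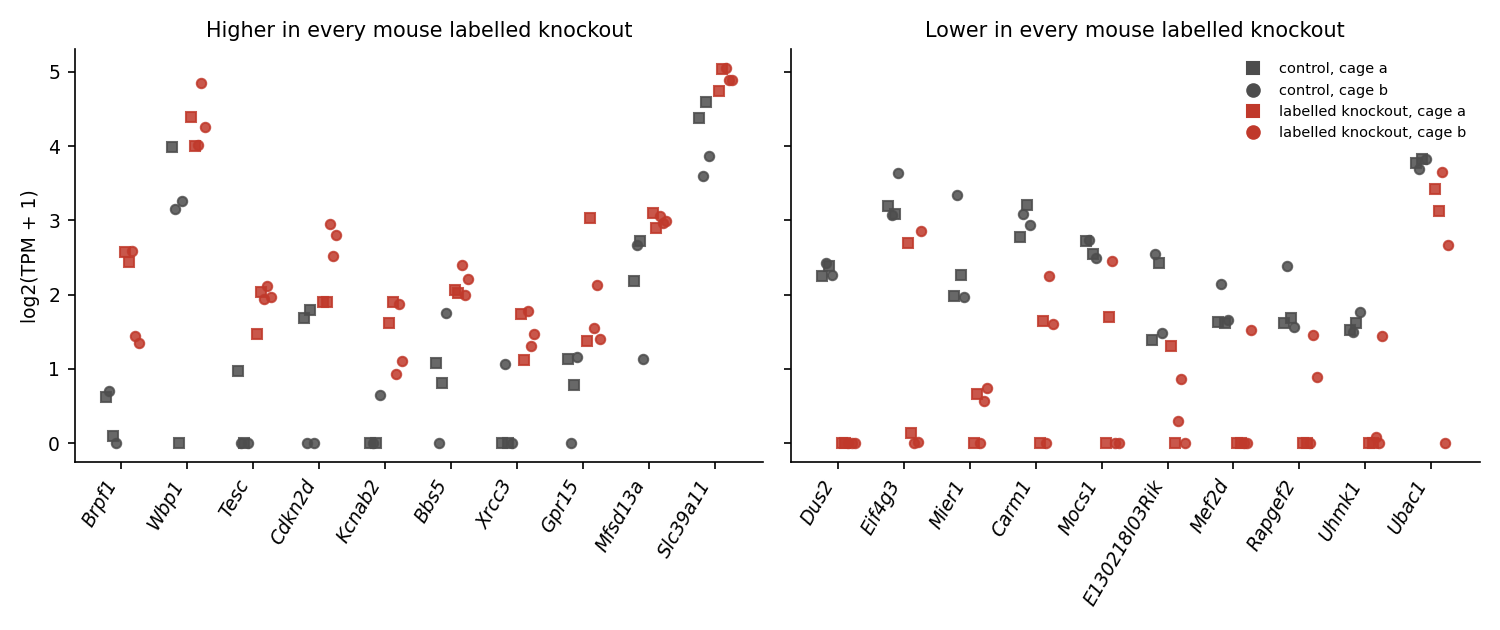
The log2(TPM + 1) of each mouse is given for the 10 genes with the largest change in each direction among those whose groups do not overlap, immunoglobulin genes left out (squares for cage a, circles for cage b). Values at or near 0 occur in the controls for most of the higher genes and in the labelled knockout for all of the lower genes.

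Abundant genes without overlap had smaller differences. By values seen, the most abundant non-overlapping genes outside the immunoglobulins were the immediate early gene *Fosb*, the ribosomal protein gene *Rpl36al* and the transcription factor *Klf6*. *Fosb* had 421, 435, 407 and 470 TPM in the controls against 379, 234, 288, 396 and 348 TPM in the labelled knockout, a log2FC of −0.42 (SE 0.16, adjusted p = 0.865). It was −0.48 in cage a and −0.40 in cage b. *Klf6* had 257 to 276 TPM against 148 to 234 TPM, also with a fold change of −0.42, and *Rpl36al* had 277 to 355 TPM against 368 to 482 TPM (0.37). *Fosl1*, another member of the AP-1 family, had 30.4, 48.4, 36.5 and 34.2 TPM in the controls against 24.6, 10.4, 26.3, 26.6 and 21.8 TPM in the labelled knockout (log2FC −0.79, SE 0.27, adjusted p = 0.865). Labelled knockout 2 was the lowest mouse for *Fosb*, *Fosl1* and *Klf6*. Of the 16 immediate early genes, which respond within minutes to tissue handling among other stimuli, 15 had a negative fold change (median −0.14), 1 had an unadjusted p under 0.05 and none was called.

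Secretory genes had mostly positive fold changes, but none was called and none had groups that did not overlap. Of 98 genes in 4 lists 80 were tested. The median log2FC was 0.15, against 0.00 over all genes tested, 57 were positive and 23 negative, and 9 had an unadjusted p under 0.05, all higher. That is 9 of 80 against 2.7% of all genes. The secretory, complement and antigen presentation lists were chosen with earlier results of these data known. Their counts and medians therefore describe these mice and are not a test. The median was 0.16 in cage a and 0.14 in cage b, and it was 0.09 after values were centred for transcript length and 0.09 without control 2.

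The sign was most even in the deep crypt secretory genes, of which 21 of 22 had a positive fold change (median 0.23, 0.37 in cage a and 0.20 in cage b). After centring for transcript length this median was 0.15. *Reg4*, the lectin that marks these cells, had 702, 377, 360 and 580 TPM in control 1 to 4 and 1182, 1247, 958, 476 and 742 TPM in labelled knockout 1 to 5. All mice labelled knockout except replicate 4 lay above all controls. The log2FC was 0.84 (SE 0.32, adjusted p = 0.865), 1.27 in cage a and 0.57 in cage b. *Spink4*, a peptide of secretory granules, had 1515, 1078, 877 and 1138 TPM in the controls against 2363, 1879, 1836, 1131 and 1948 TPM in the labelled knockout (0.66, SE 0.23, adjusted p = 0.865), again with replicate 4 within the range of the controls. *Mptx1*, a pentraxin, was the most abundant gene of the list, at 8830, 2456, 3038 and 5826 TPM against 8651, 11630, 5905, 4621 and 10160 TPM, so that control 1 lay among the mice labelled knockout. *Kit* had the largest positive change (0.95), with 0.00251 TPM in control 2, and *Thbs1* the only negative one (−0.57). In the list of deep secretory markers that the study used, 38 of 48 genes tested were positive (median 0.21) and 7 had an unadjusted p under 0.05, all higher. Its member *Selenom*, a selenoprotein of the endoplasmic reticulum, had 113, 102, 119 and 121 TPM in the controls against 165, 142, 165, 134 and 134 TPM in the labelled knockout, and was the only member of the 8 colon cell type lists the study used whose groups did not overlap (log2FC 0.37, SE 0.10, adjusted p = 0.865). Over all genes the share without overlap was 1.55%, so that this is no more than the background.

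Goblet and mucus genes were divided. Of 31 tested, 19 had a positive and 12 a negative fold change (median 0.07), and 4 had an unadjusted p under 0.05. *Muc2*, the main gel-forming mucin, had 63.9, 86.5, 183 and 106 TPM in the controls against 93.4, 105, 88.5, 158 and 87.1 TPM in the labelled knockout (0.03, SE 0.29). The abundant goblet products *Zg16*, *Agr2* and *Tff3* gave a log2FC of −0.03, 0.31 and 0.26. The largest change was that of *Retnlb*, a lectin-like antibacterial protein, at 648, 4.16, 18.9 and 100 TPM in the controls against 374, 380, 200, 87.5 and 387 TPM in the labelled knockout. This was a log2FC of 2.30 with an SE of 1.23 (adjusted p = 0.865), and the highest mouse of all was control 1. *Ang4*, an antimicrobial ribonuclease noted from its values, was likewise highest in control 1 and lowest in control 2, at 841 and 10.8 TPM. *B3gnt6*, which extends mucin glycans, had the lowest fold change (−0.55) at 0.201 to 3.12 TPM. *Atoh1*, the transcription factor that commits cells to the secretory lineage, and the goblet products *Clca1*, *Capn9* and *Gcnt3* were the 4 with an unadjusted p under 0.05. *Atoh1* had 10.6, 10.21, 16.9 and 13.7 TPM in the controls against 24.9, 18.8, 20.9, 12.8 and 21.7 TPM in the labelled knockout (0.58, SE 0.21, adjusted p = 0.865). As for *Reg4* and *Spink4*, replicate 4 was the only mouse labelled knockout within the range of the controls.

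Enteroendocrine genes had a median of 0.15 over 17 genes tested, with none at an unadjusted p under 0.05. This median was 0.06 in cage a, 0.02 in cage b and 0.06 after centring for transcript length. The granins *Chga* and *Chgb* were at a log2FC of 0.25 and 0.20 and the hormone *Pyy* at −0.04, while *Neurod1* (0.38) and *Scgn* (−0.39) marked the ends of the list. Tuft genes had a median of 0.13 over 10 genes, 5 in each direction. *Pou2f3*, the transcription factor of the tuft lineage, had 0, 1.01, 1.34 and 0 TPM in the controls against 3.75, 3.74, 1.51, 1.23 and 3.14 TPM in the labelled knockout (1.25, SE 0.37, adjusted p = 0.865). Its groups overlapped at labelled knockout 4 and control 3. The other named members were the eicosanoid enzymes *Alox5ap* (−0.01), *Hpgds* (−0.14), *Ptgs1* (−0.64) and *Ltc4s* (−0.79), the last listed at 0 in control 2 and in labelled knockout 4 and 5.

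Beside the immunoglobulin share, secretory genes had no single order. Of the controls, 1 and 4, with shares of 24.8% and 30.9%, were above 2 and 3 for *Reg4*, *Spink4* and *Mptx1*, and labelled knockout 2, with 47.4%, was the highest mouse for *Reg4* and *Mptx1*. Labelled knockout 4, with a share of 35.4%, had the lowest *Reg4*, *Spink4*, *Mptx1* and *Atoh1* of its group. The part of the cells that carry immunoglobulin transcripts in these values was not tested. With the log2 share as a covariate the median over the secretory genes was 0.24, and with immunoglobulin genes removed and TPM rescaled it was 0.15.

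**Figure D3:**
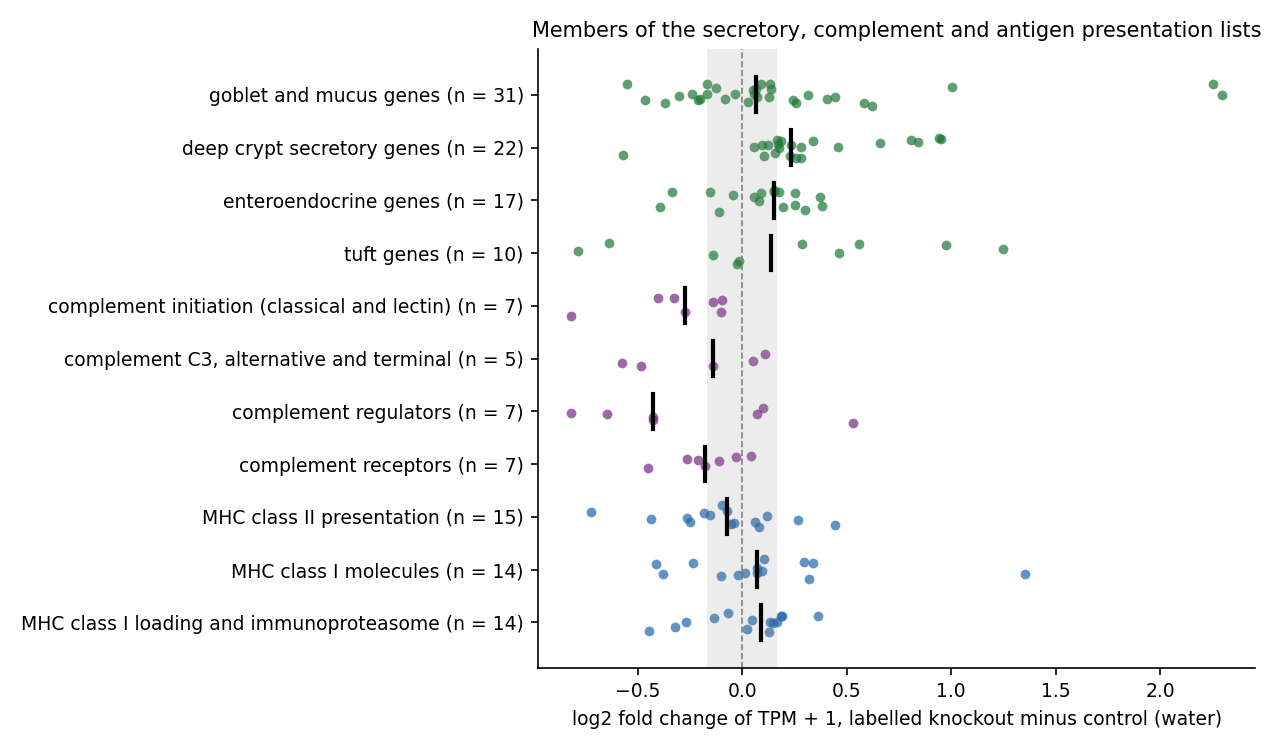
Each point is the log2FC (labelled knockout minus control) of a tested gene in the secretory (green), complement (purple) and antigen presentation (blue) lists, with black bars at the medians and a grey band from the lower to the upper quartile of all genes tested. The deep crypt secretory genes lie right of 0 except for 1, and the complement initiation genes lie left of 0.

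Complement genes had mostly negative fold changes, with a lower median in cage a than in cage b, and none was called or had groups that did not overlap. Of 51 genes 26 were tested, 20 of them with a negative and 6 with a positive fold change (median −0.20, and −0.09 with the log2 immunoglobulin share as a covariate), and 4 had an unadjusted p under 0.05, all lower, against 2.58% of all genes. The median without labelled knockout 2 was −0.03. It was −0.61 in cage a and 0.05 in cage b, a difference that was not called for any gene in a fit with an interaction of genotype and cage (0 of 11046 genes, 472 with an unadjusted p under 0.05). Over the 26 genes, the mean log2(TPM + 1) was 4.48, 4.47, 4.82 and 4.46 in control 1 to 4 and 4.31, 3.91, 4.36, 4.67 and 4.38 in labelled knockout 1 to 5.

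Among the genes of initiation, all 7 tested had a negative fold change. The chains of C1q, the recognition molecule of the classical pathway, were the most abundant: *C1qa* had 336, 325, 334 and 340 TPM in the controls against 245, 192, 359, 422 and 359 TPM in the labelled knockout (−0.14, SE 0.22). Both mice of cage a were below and the 3 mice of cage b above all controls. *C1qb* and *C1qc* gave a log2FC of −0.10 each. *C4b*, which C1 cleaves next, had 26.2, 40.4, 56.9 and 39.8 TPM in the controls against 35.8, 13.8, 17.3, 34.3 and 16.8 TPM in the labelled knockout, a log2FC of −0.82 (SE 0.33, adjusted p = 0.865). It shares most of its sequence with a neighbouring copy, which makes its value uncertain. *C3*, on which all pathways converge, had 35.8, 31.9, 47.6 and 40.0 TPM in the controls against 31.1, 22.6, 25.2, 40.0 and 20.6 TPM in the labelled knockout (−0.49, SE 0.20, adjusted p = 0.865). Only labelled knockout 4 lay within the range of the controls. The log2FC was 0.11 for *Cfb*, −0.14 for *Cfp* and −0.58 for *C7*.

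Regulators had the lowest median (−0.43 over 7 genes). *Cd55*, a membrane inhibitor, had 38.8, 43.7, 63.0 and 39.2 TPM in the controls against 33.3, 28.7, 30.8, 45.1 and 31.3 TPM in the labelled knockout (−0.43). The log2FC was −0.65 for *Serping1*, the C1 inhibitor, 0.07 for *C1qbp* and 0.53 for *C4bp*, which had 3.09 TPM or less in all mice. Of the receptors, *C3ar1* (−0.27), *C5ar1* (−0.21), *Itgb2* (−0.03), *Itgam* (0.04) and *Vsig4* (−0.45) all differed by less than their standard errors.

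Fibroblast markers had the same lowest and highest mouse of the labelled knockout as the complement genes, and macrophage markers the same lowest mouse. All 10 fibroblast markers were tested and all 10 had a negative fold change (median −0.58, −0.86 in cage a and −0.42 in cage b), with 2 at an unadjusted p under 0.05 and none called. Their mean log2(TPM + 1) was 4.85, 5.57, 5.54 and 5.18 in control 1 to 4 and 4.79, 3.99, 4.89, 5.48 and 4.51 in labelled knockout 1 to 5. Labelled knockout 2 was thus the lowest and labelled knockout 4 the highest of its group. *Col1a1* had 21.03, 31.1, 35.9 and 25.7 TPM in the controls against 17.3, 8.62, 15.5, 31.4 and 11.5 TPM in the labelled knockout (−0.82, SE 0.32, adjusted p = 0.865). The 13 tested markers of macrophages and dendritic cells had a median of −0.15 (−0.52 in cage a and 0.09 in cage b). Their mean log2(TPM + 1) was 5.09, 5.00, 4.36 and 4.93 in control 1 to 4, lowest in the control with the highest mean of the complement genes, and 4.49, 4.38, 4.59, 5.17 and 5.41 in labelled knockout 1 to 5. *Csf1r* had 118, 118, 118 and 111 TPM in the controls against 85.2, 62.5, 96.1, 149 and 127 TPM in the labelled knockout. The part of these cells in the complement values was not tested.

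Antigen presentation genes had fold changes of both signs. Of 50 genes 43 were tested, 23 with a positive and 20 with a negative fold change (median 0.02), and none had an unadjusted p under 0.05. The median was −0.10 in cage a and 0.09 in cage b, and −0.12 with the log2 immunoglobulin share as a covariate. MHC class II genes had a median of −0.08 over 15 genes. *Cd74*, the invariant chain that escorts class II molecules, had 552, 400, 254 and 510 TPM in control 1 to 4 and 361, 323, 476, 611 and 521 TPM in labelled knockout 1 to 5 (0.12, SE 0.26, adjusted p = 0.949). *H2-Aa* and *H2-Ab1*, the chains of the class II molecule I-A, gave a log2FC of 0.06 and 0.08 and were likewise lowest in control 3, the mouse with the lowest immunoglobulin share. *H2-DMb2* had the lowest fold change (−0.72) and *H2-Eb2* the highest (0.45) of these genes. Across the MHC class I molecules the median was 0.07 over 14 genes, with *B2m*, the light chain they share, at 0.29, *H2-K1* at 0.10 and *H2-D1* at 0.07. *H2-Q7* had the largest change (1.35, SE 0.86, adjusted p = 0.865), but it belongs to a family of near-identical genes and was listed at 0 in control 3 and at 0.00046 TPM in control 2. *Cd1d1* had the lowest (−0.41). Genes of class I loading and the immunoproteasome had a median of 0.09 over 14 genes, where the chaperones *Calr*, *Canx* and *Pdia3* stood at a log2FC of 0.19, 0.05 and 0.13 and *Tap1*, which pumps peptides to class I molecules, at 0.36. *Psme1* was listed at 0 in 7 of the 9 mice, at 20.3 TPM in control 3 and at 8.69 TPM in labelled knockout 1, and its 1 listed transcript is 1 of 13 annotated.

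None of the other genes of the pathway or of the study's readouts was called. Of 38 TNF signalling genes 35 were tested, 13 with a positive and 22 with a negative fold change (median −0.12), and none had an unadjusted p under 0.05. *Tab2*, an adaptor between TNF receptors and kinases, was the only one whose groups did not overlap, at 20.7 to 23.1 TPM against 18.1 to 20.6 TPM (−0.14, SE 0.08), and 1 of 35 is near the 1.55% of all genes. *Ly6a*, which marks the regenerating epithelium, had 105 to 161 TPM in the controls and 104 to 197 TPM in the labelled knockout (0.09, SE 0.21), and *Mki67*, a marker of cycling cells, 16.3 to 26.9 TPM and 17.6 to 21.7 TPM (−0.08, SE 0.16). *Pigr*, which carries IgA through the epithelium, had 796 to 964 TPM and 793 to 1167 TPM (0.19, SE 0.14), unlike the immunoglobulin genes, whose share ranged in the controls from 1.62% to 30.9%. Cell division genes had a median of 0.11 over 39 tested, stem cell and Wnt target genes −0.10 over 15, interferon-stimulated genes 0.02 over 33 and secreted antimicrobial proteins 0.17 over 15. In these 4 lists 1 gene, a cell division gene, had an unadjusted p under 0.05 and none was called.

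Fold changes were related to the length of the transcript. Length was taken for the listed transcript with the highest mean TPM, and the 10856 genes tested that are not immunoglobulin genes were divided into 10 bins of like size by it. The median log2FC fell from 0.12 in the bin of the shortest transcripts (201 to 1079 bases) to −0.13 in that of the longest. In the shortest bin, 13 genes were higher without overlap and 2 were lower, and in the longest bin 2 were higher and 28 lower. The 70 higher genes had a median length of 1814 bases and the 97 lower genes one of 4413 bases, against 2720 bases in all, and 25.7% of the higher genes and 75.3% of the lower genes were longer than this median. In each mouse, the mean log2(TPM + 1) of the longest bin less that of the shortest was −2.27, −2.03, −1.97 and −1.92 in control 1 to 4 and −2.35, −2.32, −2.45, −2.18 and −2.05 in labelled knockout 1 to 5. The groups overlapped, because control 1 lay among the mice labelled knockout and labelled knockout 5 near control 2. After the log2 values of each mouse were centred within these bins, a step chosen after the data were seen, 157 genes did not overlap, 74 higher and 83 lower. Of these, 102 were among the 171 (59.6% of the 171 and 65.0% of the 157).

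**Figure D4:**
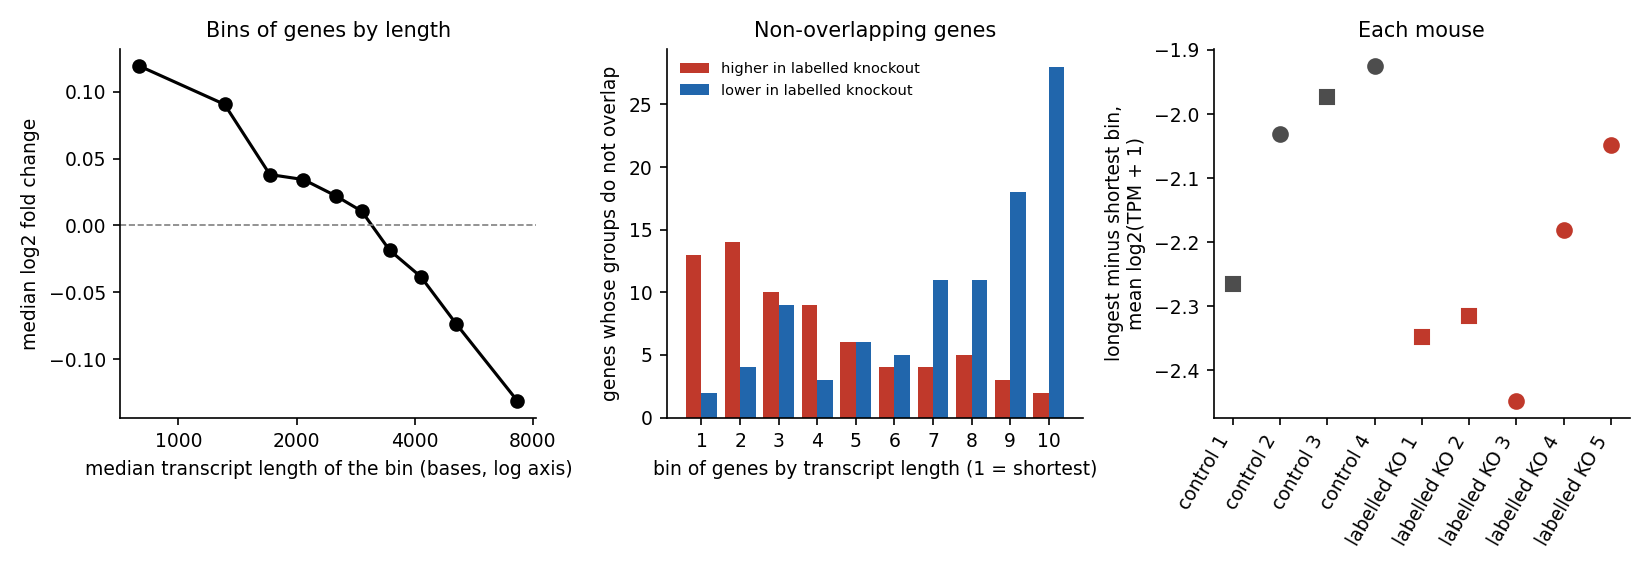
The left panel plots the median log2FC (labelled knockout minus control) of each bin of genes against the median transcript length of the bin, the middle panel counts the genes whose groups do not overlap in each bin, and the right panel gives the longest bin minus the shortest in mean log2(TPM + 1) for each mouse (squares for cage a, circles for cage b). The fold change falls from 0.12 to −0.13 with length, and the single values of control 1 and labelled knockout 5 lie within the range of the other group or close to it.

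All DSS-treated mice were female and from cages c and d, while the water-treated mice were of both sexes and from cages a and b. Treatment therefore cannot be told apart from cage, and sex differed too. The DSS-treated mice are also other animals, in a table that was normalized separately. Fold changes of the tables were therefore set side by side without a test of their difference. Of the 171 genes, 161 were tested there too, and 53 (32.9%) had a fold change of the same sign, compared with 45.2% of all 10159 genes tested in both. The groups did not overlap in the same direction for 1 of the 161 and in the opposite direction for 3, where 3.68% of all genes tested in the DSS-treated mice did not overlap. Of 79 secretory genes tested in both, 55 were of opposite sign, where 5570 of all 10159 genes were, and 66 were negative in the DSS-treated mice (median −0.23). All 22 deep crypt secretory genes had the opposite sign of the water-treated mice (median −0.53). For *Reg4* the log2FC was −0.96 (SE 0.52) after DSS and 0.84 in the uninjured colon. For *Mptx1* it was −3.57 (SE 1.31) and 0.81, and for *Spink4* −0.56 (SE 0.50) and 0.66. None of these genes was called after DSS either (adjusted p = 0.9997 for each, limma). All 10 fibroblast markers had the opposite sign as well (median 0.28 after DSS). The 21 complement genes tested in both had a median of 0.08 and the 32 antigen presentation genes one of −0.13 after DSS.

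**Figure D5:**
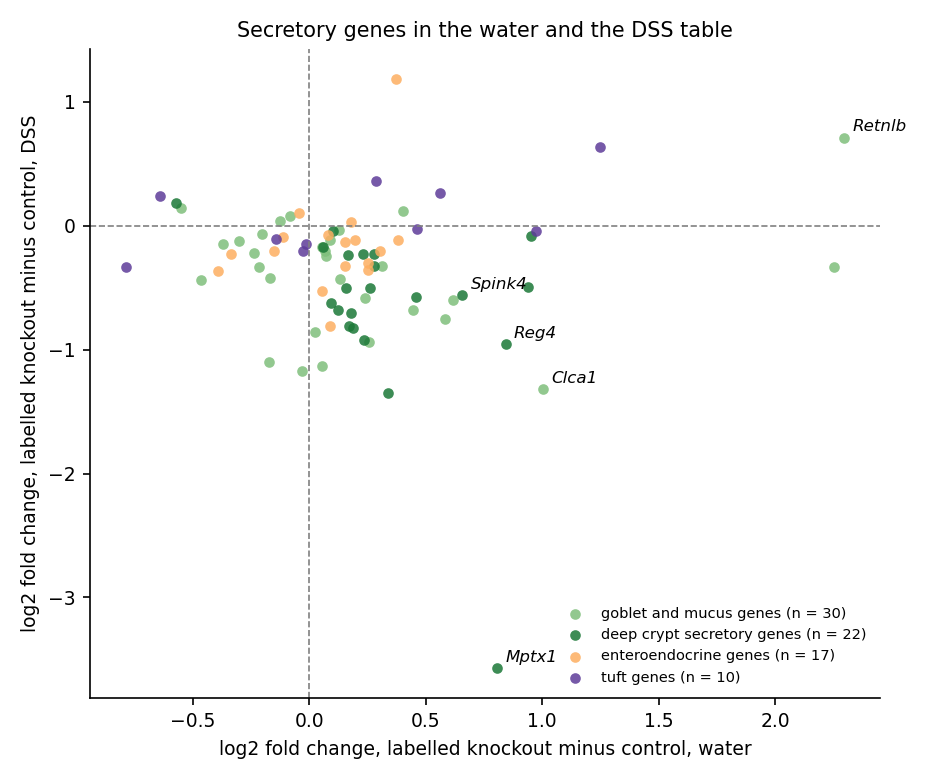
Each point is a secretory gene tested in both tables, with its log2FC (labelled knockout minus control) in the water-treated mice on the x axis and in the DSS-treated mice on the y axis. Most deep crypt secretory genes lie in the lower right, positive in the uninjured colon and negative after DSS, with *Mptx1* at 0.81 and −3.57.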

How the data were processed

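RNA-seq of EpCAM+ cells from 9 water-treated mice was used, with DSS-treated mice for a side-by-side comparison only. By the study and the submitters' processing notes (kallisto, sleuth, mm10), the authors quantified stranded 1 x 75 base polyA libraries with kallisto and deposited a table of TPM per transcript for each treatment, normalized between the mice of that table and listing principal isoforms only. The deposited tables also hold the authors' own ratios, p-values and q-values, which were not used. No column belonged to another series. Depth is unknown from TPM, so that precision rests on the number of mice. That mice of a group are separate animals is taken from the labels.

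Of 29373 lines 385 repeats were dropped, leaving 28988 transcripts, and TPM was summed for each of 22396 gene symbols (24 cover several Ensembl genes). The 9 mice were compared by limma 3.58.1 (R 4.3.3) on log2(TPM + 1) with a variance trend, over genes or transcripts with a mean of at least 1 TPM, without covariates, and were called at a Benjamini-Hochberg adjusted p under 0.05. The fit was run on simulated normal log2 values with known changes, drawn independently for each gene. Those values held no cages and no cell content shared between genes, so the run does not bear on these. *Tnfrsf1b*, the immunoglobulin share and the genes without overlap were also tested by permutation (exact, two-sided, all 126 splits). Within-cage values are differences of means. Positions, lengths and sequences are from GENCODE M21. Genes named were *Tnfrsf1b*, those called, the 10 with the largest change in each direction among non-overlapping genes, and in each list of secretory, complement and antigen presentation genes the largest, the smallest and the 3 most abundant. A gene that this rule takes is not reported here. Genes beyond that rule (*Ang4*, *Atoh1*, *Cd55*, *Klf6*, *Rpl36al*, immunoglobulin segments and others) were named after their values were seen. The lists were written by hand, and the members and lists were chosen with earlier results of these data known. The 9 lists the study used were compared too. Alternatives were a pseudocount of 0.1, other filters, median-of-ratios scaling (factors 0.986 to 1.01), removal of immunoglobulin genes, the immunoglobulin share or cage as covariate, a replicate block, centring by transcript length, and leaving out each mouse. Python 3.11.15 with pandas 2.3.3 was used for tables.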

Additional observations from a re-analysis of the deposited data

Results flagged for a closer look

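In 28 of 198 groups of 4 or 5 mice (99 measures, each in both groups), 1 mouse stood further from the others than Dixon's 95% critical value for the gap allows, where chance gives about 1 in 20 groups. TPM is given for that mouse.

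Labelled knockout 4, which lay within the range of the controls for *Reg4*, *Spink4* and *Atoh1*, stood apart in its group for *Cd55* (45.14), *Muc2* (157.6) and *H2-K1* (566.8) on the high side, for *C4bp* (1.809) on the low side, and for *Dus2* (2e-06), where all 5 values were near 0. Labelled knockout 5 was high for *B3gnt6* (3.118), *Mef2d* (1.889) and *Uhmk1* (1.722), the last 2 being genes at or near 0 in the rest of its group. Labelled knockout 1 stood apart for *Psme1* (8.69) and *Igkv4-80* (540.9), labelled knockout 2 for *Calr* (315.9) and labelled knockout 3 for *Ighv2-2* (10460).

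Control 1 was high for *Retnlb* (647.8), *Ang4* (841), *Capn9* (9.655), *Igkv4-80* (114.4) and *Tesc* (0.9559). Control 2 was high for *Mier1* (9.154), *Rapgef2* (4.248), *Mef2d* (3.433) and *Xrcc3* (1.095). Control 3, with the lowest immunoglobulin share, was high for *Psme1* (20.34), *Vsig4* (18.03) and *C3ar1* (16.82). Control 4 was low for *Csf1r* (110.9), *Tusc3* (15.37, gene sum) and *C4bp* (0.4351) and high for *Kcnab2* (0.5746). No gene had an effect of genotype called different between the cages.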

How the results depend on the processing

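The number of genes called, 1, became 0 with a pseudocount of 0.1 (558 genes with an unadjusted p under 0.05), 0 at a mean of at least 5 TPM (373 genes), where *Dus2* is not tested, and 4 over all genes above 0 (16921 tested). It was 1 to 2 when a mouse was left out. The number of transcripts called, 2, became 0 at a mean of at least 5 TPM (362 with an unadjusted p under 0.05), 1 with cage as a covariate, and 1 to 7 when a mouse was left out. *Dus2* had an adjusted p of 0.091 at a pseudocount of 0.1 (limma). It kept its call under the other scalings, with the immunoglobulin share or cage as a covariate and without any single mouse (0.00666 to 0.0252). With the replicate block it was not called.

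The replicate numbers do not pair the mice (correlations of deviations −0.08 to 0.09), and with the replicate block 0 genes and 0 transcripts were called (623 and 665 with an unadjusted p under 0.05).

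Genes without overlap numbered 281 to 528 when a mouse was left out. With immunoglobulin genes removed 52 were higher and 95 lower, and only 99 of the 171 genes of the main setting were among them. With median-of-ratios scaling 82 were higher and 84 lower, and 152 of the 171 were among them. For *Tnfrsf1b* (−0.34 to −0.15), the immunoglobulin share and the medians of the secretory and complement genes no alternative changed the direction or made a call. The median of the antigen presentation genes lay between −0.12 and 0.09. Of 1554 values of 88 named genes, 19 moved by more than the spread between mice, 17 of them with the pseudocount of 0.1.

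Precision is limited by 4 and 5 mice, by a depth unknown from TPM, and by tables that list principal isoforms only.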

Other observations

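Other groups of genes differed between the labelled knockout and the controls by small medians. In the other colon cell type lists that the study used, the median log2FC was 0.12, 0.08 and −0.03 in 3 lists of progenitor genes (48, 50 and 50 tested), −0.07 in the list of absorptive genes (49), 0.07 in that of goblet genes (17), 0.09 in that of enteroendocrine genes (31) and 0.42 in that of tuft genes, of which 4 were tested. In the list of genes of the fetal intestine it was −0.05 over 212 genes, with 91 positive and 121 negative, and 6 higher and 8 lower at an unadjusted p under 0.05, where all genes gave 2.7% and 2.58%. *Fosl1* was the only gene of that list whose groups did not overlap, against 1.55% of all genes.

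Among markers of other cells, the median was −0.15 over 9 endothelial markers, −0.06 over 5 smooth muscle markers, −0.14 over 8 markers of T and intraepithelial lymphocytes and 0.25 over 3 markers of neutrophils and mast cells, and none of these genes was called. Of 190 immunoglobulin genes tested, 151 had a positive and 39 a negative log2FC (median 1.26), with a median of 2.05 in cage a and 0.41 in cage b. At an unadjusted p under 0.05, 29 were higher and 1 was lower, where all genes gave 2.7% and 2.58%, and none was called. With the log2 immunoglobulin share as a covariate, *Jchain* went from 1.40 to −0.01. As *Jchain* had the order of this share within the controls, the fall is no separate result about genotype.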
